A study of Mus musculus with 8 samples.

Results

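The G1 cyclins, their kinases and the Rb family were examined in mRNA-seq of cells that the study calls liver ECs (MLivECs). They came from mice with and without the endothelial LRP1 knockout. The genes were chosen by symbol, from a list of 10 names of cyclins D and E, their catalytic partners and pocket proteins. Of these 10, 9 were analysed, out of 22520 genes in the table, and 1 listed gene is not analysed here. The 9 genes are Ccnd1, Ccnd2, Ccnd3, Ccne1, Ccne2, Cdk2, Cdk4, Cdk6 and Rbl1. All 9 reached the level required for testing, a signal of 1 or more in 4 or more of the 8 libraries, as did 11391 genes in total.

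The 4 WT libraries came from littermates with the genotype LRP1 f/f; Cdh5-CreER-/-, and the 4 LRP1 eKO libraries from LRP1 f/f; Cdh5-CreER+/- mice. Mice were C57BL/6 per the labels, at postnatal day 14. Both groups carry the floxed Lrp1 allele and the eKO group alone carries CreER, a tamoxifen-inducible recombinase under the Cdh5 promoter, so an effect of the recombinase cannot be told apart from that of losing Lrp1. The cells were selected with PECAM-1 antibody beads, and the labels call them liver microvesicular cells. Nothing in the labels says that each library is a separate mouse, so p-values measure only the spread between these libraries, which may be technical.

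Cells pass from G1 into S phase when cyclin D with CDK4 or CDK6, and then cyclin E with CDK2, phosphorylate the pocket proteins and release E2F transcription factors, which switch on genes for DNA replication. D-type cyclins are made in response to growth signals, whereas cyclin E is itself an E2F target. CDK inhibitors of the INK4 and CIP/KIP families act on these kinases. In the resting vessel wall most ECs are out of the cycle, and they re-enter it during growth and repair.

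The target was checked first. Lrp1 signal was 61.6, 59.0, 56.2 and 85.1 in WT replicates 1 to 4 and 6.01, 2.16, 5.15 and 4.32 in LRP1 eKO replicates 1 to 4. It fell by 3.66 on the log2(signal + 1) scale, and the groups did not overlap. This fall is that of the whole library. Cdh5, whose promoter drives the recombinase, was low in all 8 libraries, as given below, and which cells lost Lrp1 was not tested. Signal here is the authors' quantile-normalized value per gene, with depth unknown. All differences between genotypes are LRP1 eKO minus WT on the log2(signal + 1) scale, which understates changes of low genes, and all adjusted p-values are from limma with Benjamini-Hochberg adjustment over all genes tested.

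WT replicate 4 and LRP1 eKO replicate 2 stood apart from the rest. WT replicate 4 lay farthest from its group median for 61.7% of the genes tested, and LRP1 eKO replicate 2 for 37.2%. The defining markers of ECs were low in all 8 libraries. Cdh5, the VE-cadherin of EC junctions, ranged from 1.26 to 2.27 among WT libraries and from 2.21 to 4.99 among LRP1 eKO libraries, and Pecam1, used to select the cells, had 1.53 to 2.50 and 1.84 to 3.85. The summed signal of 10 pan-endothelial markers was 38.7 to 44.3 in WT and 52.0 to 70.4 in LRP1 eKO, where 3 of 7 tested were higher and 0 lower. Eng had means of 12.4 and 24.3, while Pecam1, Emcn, Kdr and Tie1 did not pass. Cldn5, below the filter, had 0.97 to 1.19 in WT and 0.57 to 0.83 in LRP1 eKO. Fitted without the filter, Cldn5 was lower (limma adjusted p = 0.0069) and Tek higher (limma adjusted p = 0.045). The summed signal of 6 smooth muscle markers, led by Acta2 (smooth muscle actin), was 1471 to 1535 in WT and 1805 to 1887 in LRP1 eKO, with 4 of 5 tested higher and 1 lower (2 of 4 higher without LRP1 eKO replicate 1, 3 or 4). Of the 4, Myh11 met the filter only through LRP1 eKO (0.44 to 0.62 in WT, 1.46 to 1.68 in LRP1 eKO). For 10 stellate and fibroblast markers, led by Col1a2, the summed signal was 2016 to 2325 and 1775 to 2230, with 1 of 8 tested higher (2 without WT replicate 4) and 2 lower. In all 8 libraries the smooth muscle sum and the stellate and fibroblast sum were far above the pan-endothelial sum. The G1 values are those of the whole library and were not assigned to a cell type. The sums moved with genotype for the endothelial and smooth muscle lists, and their part in the results for the G1 genes was not tested. In bulk libraries fewer cells of a type and less RNA per cell cannot be told apart.

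Of the 9 G1 genes, 3 rose in LRP1 eKO, 3 fell and 3 did not pass the test. The D-type cyclins Ccnd1 and Ccnd2 and their kinase Cdk6 were higher, and the kinases Cdk4 and Cdk2 and the cyclin Ccne2 were lower. Calls were made at an adjusted p under 0.05, which 41.2% of all genes tested passed (19.0% higher and 22.2% lower). The share among the G1 genes was 66.7%, and 0 of them also passed a 2-fold change (Ccnd2 did without WT replicate 2, at 1.01). Signals of the 2 groups did not overlap for 6 of the 9, against 42.6% of all genes tested. The median absolute log2 difference was 0.17 over all genes tested.

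**Figure D1:**
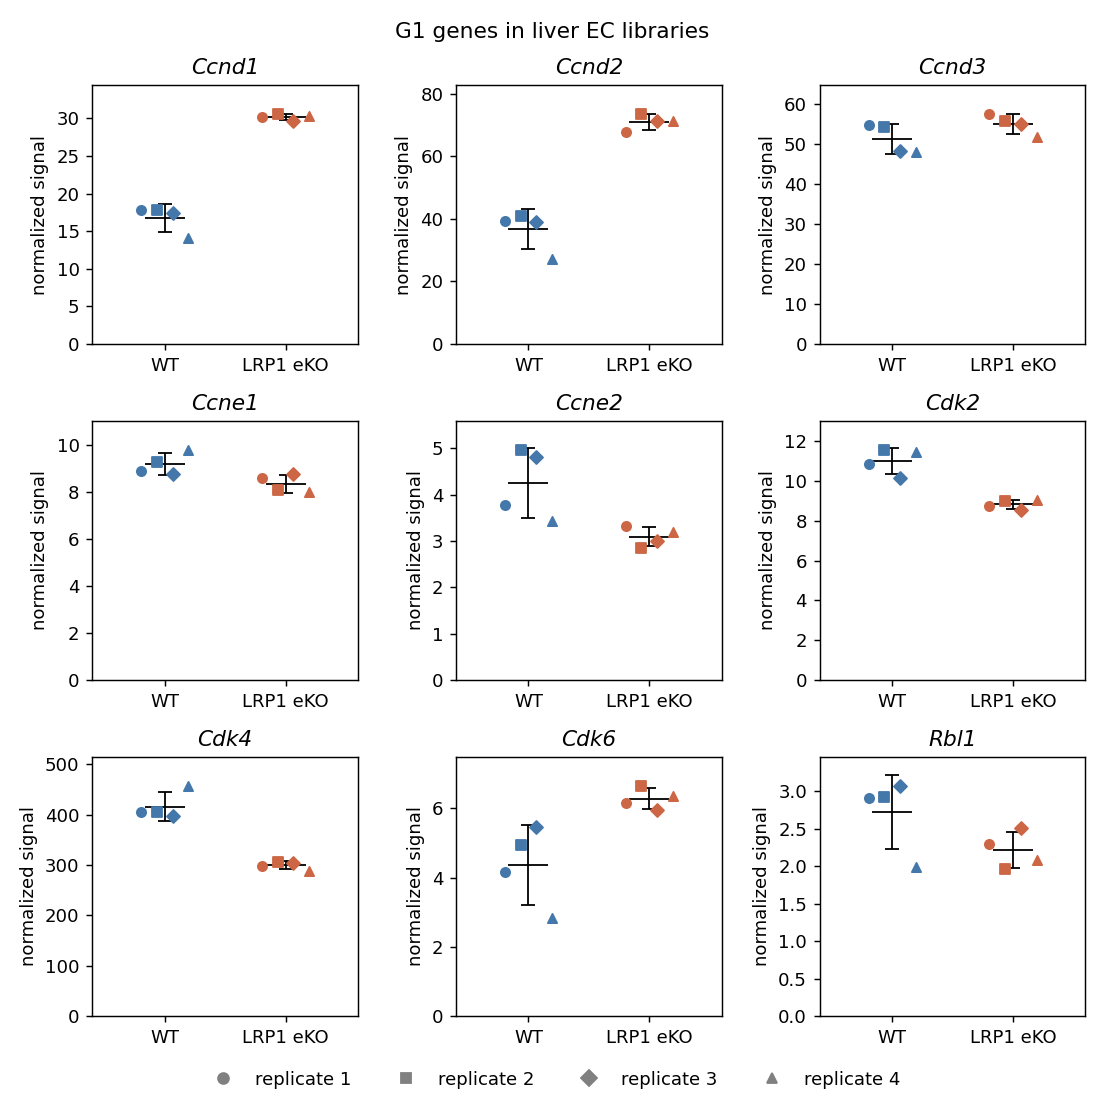
Normalized signal (linear axis from 0) of each of the 9 G1 genes in each library of MLivECs. Points are single libraries with a marker shape for each replicate number, the horizontal bar is the group mean and the error bar the SD (n = 4). The LRP1 eKO libraries all lie above WT for Ccnd1, Ccnd2 and Cdk6, all below WT for Ccne2, Cdk2 and Cdk4, and overlap WT for Ccnd3, Ccne1 and Rbl1. WT replicate 4 (triangle) is the lowest WT library for Ccnd1, Ccnd2, Ccnd3, Ccne2, Cdk6 and Rbl1 and the highest for Ccne1 and Cdk4.

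The D-type cyclins, the regulatory subunits that carry growth signals to CDK4 and CDK6, did not move together. Ccnd1 and Ccnd2 rose, while Ccnd3 did not pass the test.

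Ccnd1 (ENSMUSG00000070348, chr7:144929931-144939925 on the minus strand of GRCm38) encodes cyclin D1. Its signal was 17.8, 17.8, 17.5 and 14.1 in WT replicates 1 to 4 and 30.1, 30.6, 29.6 and 30.2 in LRP1 eKO replicates 1 to 4. The eKO libraries were nearly level with each other and all above WT, among which replicate 4 was lowest. The mean was 16.8 ± 1.83 in WT and 30.2 ± 0.407 in LRP1 eKO (SD, n = 4), a ratio of 1.80. Ccnd1 rose by 0.81 on the log2 scale (SE 0.072, 95% interval 0.65 to 0.98, limma adjusted p = 2.6e-05), the 204th largest increase of the 11391 genes tested. The exact two-sided permutation test gave p = 0.029, the smallest that 4 against 4 libraries allow.

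Ccnd2 (ENSMUSG00000000184, chr6:127125162-127152193, minus strand) encodes cyclin D2 and showed the largest difference of the 9 genes. It gave signals of 39.4, 40.9, 39.2 and 27.1 in the WT libraries and of 67.6, 73.6, 71.1 and 71.2 in LRP1 eKO, again with WT replicate 4 lowest and no overlap. The means were 36.7 ± 6.39 and 70.9 ± 2.45 (SD, n = 4), a ratio of 1.93. The log2 difference was 0.95 (SE 0.11, 95% interval 0.70 to 1.20, limma adjusted p = 1.8e-04). Without WT replicate 4 it was 0.82 for Ccnd2 and 0.74 for Ccnd1. Without WT replicate 2 the difference of Ccnd2 was 1.01 (limma adjusted p = 4.0e-04), past a 2-fold change.

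Ccnd3 (ENSMUSG00000034165, chr17:47505051-47599691, plus strand) encodes cyclin D3. Its signal was 54.8, 54.3, 48.3 and 47.9 in WT and 57.6, 55.7, 55.0 and 51.7 in LRP1 eKO, so the groups overlapped. The difference of 0.10 (95% interval -0.03 to 0.23) did not pass the test (limma adjusted p = 0.19; exact permutation p = 0.14).

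Gene overlap bears on these values, since the table does not state whether counting used strand. In the GENCODE M21 annotation 27.2% of the 50-base stretches of Ccnd1 exons also lie in exons of LTO1 on the other strand, listed in the table as Oraov1, which had a mean signal of 11.7 ± 1.14 among WT libraries and 12.6 ± 0.899 in LRP1 eKO (SD, n = 4; limma adjusted p = 0.35). Ccnd3 shared 14.6% of its stretches with other transcripts in all, 9.99% with Bysl on the other strand and the rest with the pseudogene Ccnd3-ps, and Bysl had 12.7 ± 0.981 and 13.1 ± 0.655 (SD, n = 4; limma adjusted p = 0.59). For Ccnd2 and an antisense transcript it was 4.83%. Neither coding partner passed the test.

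The 3 genes with the profile nearest to that of Ccnd2 over the 8 libraries, by the root mean square difference of mean-centred log2 values, were Lox, Mtap1b and Adamts5, at distances of 0.060, 0.064 and 0.068 log2 units. Lox, a collagen cross-linking oxidase, had mean signals of 468 in WT and 854 in LRP1 eKO. Mtap1b, a microtubule-associated protein, had 4.95 and 10.1, and Adamts5, a matrix protease, had 6.22 and 13.7.

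The kinase partners of cyclin D moved in opposite directions. Cdk4 fell and Cdk6 rose. Both encode catalytic subunits that bind D-type cyclins and phosphorylate pocket proteins.

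Cdk4 (ENSMUSG00000006728, chr10:127063534-127067920, plus strand) gave signals of 404, 406, 396 and 457 in the WT libraries and of 299, 306, 304 and 288 in LRP1 eKO. Every eKO library was below every WT library, and WT replicate 4 was the highest. The mean was 416 ± 28.0 in WT and 299 ± 8.10 in LRP1 eKO (SD, n = 4), a ratio of 0.72. Cdk4 fell by 0.47 on the log2 scale (SE 0.052, 95% interval -0.59 to -0.36, limma adjusted p = 1.1e-04; exact permutation p = 0.029), and by 0.43 without WT replicate 4. Cdk4 lies 0.470 Mb from Lrp1 on the same chromosome. Both groups carry the floxed allele there, and any part of this position in the fall of Cdk4 was not tested. It shares 24.2% of its exonic 50-base stretches with Tspan31 on the other strand, a tetraspanin gene whose signal spanned 75.9 to 83.4 in WT and 66.3 to 72.7 in LRP1 eKO. Tspan31 fell by 0.17 (limma adjusted p = 0.015), and without a stated strand the reads of both genes in the shared stretches cannot be told apart.

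The promoter of Cdk4 is shown since it had the largest fall among the 9 G1 genes. The sequence is the 250 bases before the RefSeq start site (GRCm38.p6, chr10:127063285-127063534, plus strand), 5′ to 3′, with the E-box CACGTG, the letters bound by MYC and related factors, in capitals. The E-box search was added after this sequence had been read.
Cdk4: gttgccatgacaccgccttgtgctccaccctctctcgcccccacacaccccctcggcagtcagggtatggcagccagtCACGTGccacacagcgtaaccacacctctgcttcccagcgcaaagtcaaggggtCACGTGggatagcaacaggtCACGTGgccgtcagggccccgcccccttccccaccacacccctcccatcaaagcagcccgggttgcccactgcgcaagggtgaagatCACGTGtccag
It holds 4 E-boxes, at -172, -118, -98 and -11 from the start site. The letters read the same on both strands, so each match counts once. An E-box occurred in 7.15% of the 32851 promoters of 250 bases before and 50 after a start site in the RefSeq table, and 8 promoters (0.0244%) held at least 4. Both the motif and the cutoff of 4 were taken from the Cdk4 promoter itself, so this share is no test of whether it is unusual. The Cdk6 promoter held 1, at -220. A match is a description of letters and no binding was measured.

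Cdk6 (ENSMUSG00000040274, chr5:3341485-3531008, plus strand) gave signals of 4.16, 4.95, 5.47 and 2.82 in the WT libraries and of 6.16, 6.66, 5.94 and 6.37 in LRP1 eKO. The eKO libraries all lay above WT, where values were more spread out. The mean went from 4.35 ± 1.15 to 6.28 ± 0.304 (SD, n = 4), a ratio of 1.44. Cdk6 rose by 0.47 (SE 0.14, 95% interval 0.16 to 0.79, limma adjusted p = 0.024; exact permutation p = 0.029). The call was lost without WT replicate 1 (adjusted p = 0.051), without LRP1 eKO replicate 2 (0.0501) and without LRP1 eKO replicate 4 (0.055), and the difference was 0.32 without WT replicate 4 and 0.29 without both WT replicate 4 and LRP1 eKO replicate 2. Other transcripts shared 1.75% of its exonic stretches, of which the antisense transcript Gm17590 shared 0.534%.

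The cyclin E and CDK2 genes, which act after cyclin D in late G1, were lower in LRP1 eKO for Ccne2 and Cdk2. Ccne1 did not pass the test.

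Ccne1 (ENSMUSG00000002068, chr7:38097984-38107534, minus strand) encodes cyclin E1 and overlaps no annotated gene. Its signal was 8.88, 9.25, 8.76 and 9.78 in WT and 8.56, 8.06, 8.76 and 7.97 in LRP1 eKO. The highest eKO library and the lowest WT library were level. The difference was -0.12 (95% interval -0.25 to 0.00, limma adjusted p = 0.10; exact permutation p = 0.057).

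Ccne2 (ENSMUSG00000028212, chr4:11191351-11204779, plus strand) encodes cyclin E2. Its signal was 3.77, 4.97, 4.80 and 3.44 in WT and 3.33, 2.86, 3.00 and 3.19 in LRP1 eKO, and WT replicate 4 lay just above the highest eKO library. The mean went from 4.25 ± 0.754 to 3.09 ± 0.206 (SD, n = 4), a ratio of 0.73. Ccne2 fell by 0.35 (SE 0.10, 95% interval -0.57 to -0.13, limma adjusted p = 0.020; exact permutation p = 0.029). The call was lost without WT replicate 2 (adjusted p = 0.0504) and without WT replicate 3 (0.054). Ints8 on the other strand shared 16.1% of its exonic stretches and gave a mean signal of 11.3 ± 0.803 in the WT libraries and 11.9 ± 0.793 in LRP1 eKO (SD, n = 4; limma adjusted p = 0.43).

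Cdk2 (ENSMUSG00000025358, chr10:128697939-128705031, minus strand) encodes the kinase of cyclin E. Its signal was 10.9, 11.6, 10.2 and 11.4 in WT and 8.76, 8.98, 8.53 and 9.04 in LRP1 eKO, without overlap. The mean went from 11.0 ± 0.641 to 8.83 ± 0.229 (SD, n = 4), a ratio of 0.80. Cdk2 fell by 0.29 (SE 0.054, 95% interval -0.41 to -0.17, limma adjusted p = 0.0025; exact permutation p = 0.029). It lies 1.08 Mb from Lrp1, on the side away from Cdk4, and any part of this position in its fall was not tested.

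Rbl1 (ENSMUSG00000027641, chr2:157145893-157204534, minus strand) encodes p107, a pocket protein that binds repressor E2Fs. Its signal was 2.91, 2.92, 3.07 and 1.99 in WT and 2.29, 1.96, 2.51 and 2.08 in LRP1 eKO. WT replicate 4 lay at the bottom of the range, next to the lowest eKO library, and the other 3 WT libraries lay above all eKO libraries. The difference of -0.21 (95% interval -0.44 to 0.03) did not pass the test (limma adjusted p = 0.14; exact permutation p = 0.11). Without WT replicate 4 the difference was -0.31 and passed (limma adjusted p = 0.0081). Rbl2, which encodes p130, the pocket protein of resting cells, had 8.29 ± 0.335 in WT and 8.65 ± 0.520 in LRP1 eKO (SD, n = 4), with a difference of 0.05 (limma adjusted p = 0.46).

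The promoters of Cdk2 and Rbl1 are shown because they were the 2 among 6 G1 genes with a promoter in the RefSeq table to hold an E2F site, searched on both strands as TTTCCCGC, TTTGCCGC, TTTCGCGC or TTTGGCGC. Both are the 250 bases before the start site in GRCm38.p6, 5′ to 3′ along the gene, with the E2F letters in capitals. The Cdk2 sequence is chr10:128705052-128705301 and the Rbl1 sequence chr2:157204535-157204784, both on the minus strand.
Cdk2: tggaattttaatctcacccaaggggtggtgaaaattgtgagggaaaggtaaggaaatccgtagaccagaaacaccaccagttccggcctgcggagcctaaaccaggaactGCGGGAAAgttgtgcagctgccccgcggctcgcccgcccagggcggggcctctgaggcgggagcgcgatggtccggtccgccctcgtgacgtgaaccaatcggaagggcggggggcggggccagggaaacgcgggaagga
Rbl1: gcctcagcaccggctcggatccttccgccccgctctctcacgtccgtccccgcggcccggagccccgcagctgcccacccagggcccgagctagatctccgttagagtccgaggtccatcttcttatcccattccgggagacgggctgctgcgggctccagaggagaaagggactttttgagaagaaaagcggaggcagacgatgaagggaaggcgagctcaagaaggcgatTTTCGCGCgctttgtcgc
The site in Cdk2 is on the opposite strand to the gene at -140, so its reverse complement is in capitals, and that in Rbl1 on the strand of the gene at -18. Any of these letters occurred in 2.26% of the 32851 promoters. The GC box GGGCGG, a site of SP1, occurred in 35.7% of all promoters, with 6 matches in Cdk2, 4 in Ccne1, 3 in Cdk4, 2 in each of both Ccnd3 promoters and 1 in Rbl1. The cyclic AMP element TGACGTCA (1.79% of all promoters) and the CHR element TTTGAA (17.9%) had 0 matches in the 7 promoters of these 6 genes. An absent match says only that these letters are not in this window. Ccnd1, Ccnd2 and Ccne2 had no promoter in the RefSeq table and were not searched.

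**Figure D2:**
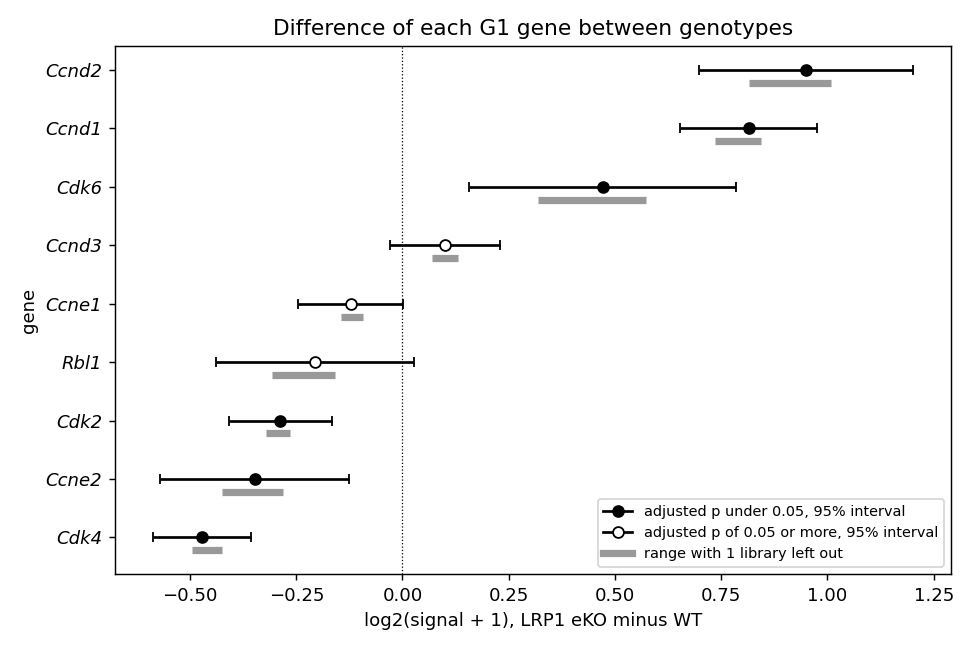
Difference of log2(signal + 1), LRP1 eKO minus WT, for each G1 gene, with its 95% interval (black line), and the range of the difference when each library was left out in turn (grey bar). Filled points passed adjusted p under 0.05. Intervals run from 0.70 to 1.20 for Ccnd2 at the top to -0.59 to -0.36 for Cdk4 at the bottom, and no grey bar crosses 0.

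Paralogs were then compared within each library, as the difference of their log2(signal + 1) values, in which the scaling of the library and the length of the genes cancel between genotypes, apart from the pseudocount. Of 5 pairs, 3 shifted without overlap between groups. The share among all gene pairs was not computed, and of single genes tested 42.6% did not overlap. Every pair holds a gene called above. A 6th planned pair was not analysed here.

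Ccnd1 moved against Ccnd3 from -1.56 ± 0.12 in WT to -0.85 ± 0.066 in LRP1 eKO (SD, n = 4), a shift of 0.71 toward Ccnd1. Ccnd2 moved against Ccnd3 from -0.49 ± 0.22 to 0.36 ± 0.095, a shift of 0.85 toward Ccnd2. Cdk4 against Cdk6 went from 6.31 ± 0.42 to 5.37 ± 0.072, a shift of -0.94 toward Cdk6, with WT values of 6.29, 6.10, 5.94 and 6.91 and eKO values of 5.39, 5.33, 5.46 and 5.29. For each of these 3 pairs the exact two-sided permutation test gave p = 0.029, and 0.048 after Benjamini-Hochberg adjustment over the 5 pairs. In each, all 4 eKO libraries lay on 1 side of all 4 WT libraries. Each shift follows from the differences of its paralogs given above and is no separate result. The adjustment was planned with the 6th pair included. With it, these 3 pairs would stay under 0.05 only if the 6th pair also gave the smallest exact p, which was not tested. Ccnd1 and Ccnd2 shifted against each other by -0.14 (exact permutation p = 0.057, adjusted 0.071) and Ccne1 against Ccne2 by 0.23 (exact permutation p = 0.14, adjusted 0.14), both with overlap between groups.

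**Figure D3:**
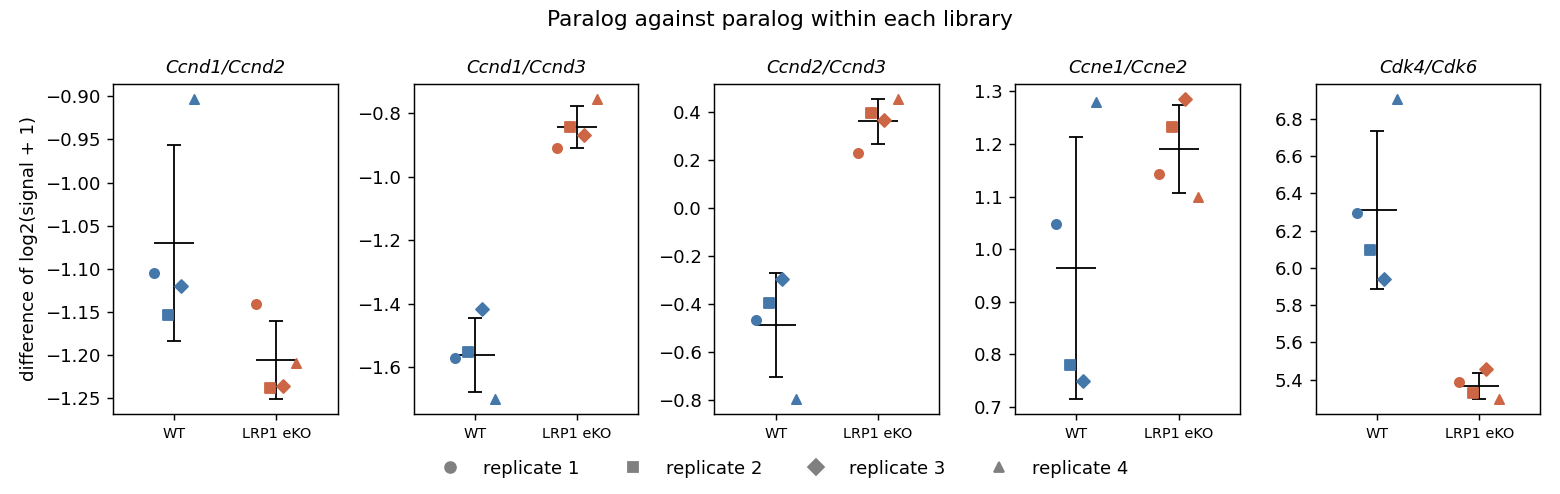
Difference of log2(signal + 1) between the named paralogs within each library, by genotype, with the group mean and SD (n = 4). Axes differ between panels and do not start at 0. The groups are separate for Ccnd1/Ccnd3, Ccnd2/Ccnd3 and Cdk4/Cdk6, and overlap for Ccnd1/Ccnd2 and Ccne1/Ccne2.

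Genes that act on or after the G1 kinases were counted in 7 lists. The lists of S, G2 and M cyclins, of replication genes and of the DREAM and MuvB complex held no gene that rose. The mitogen-responsive list held as many that rose as fell among its genes tested. Genes named beyond the 3 with the smallest adjusted p of a list were picked with their values in view. The median difference of all genes tested was -0.01, with 19.0% of them higher and 22.2% lower.

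Of 7 CDK inhibitor genes, 1 rose, 4 fell and 2 did not pass the test, with a median difference of -0.40. Cdkn2c, the INK4 inhibitor p18, gave signals of 9.40, 10.4, 10.6 and 11.0 in the WT libraries and of 6.23, 6.00, 5.81 and 5.82 in LRP1 eKO, and fell by 0.70 (limma adjusted p = 1.7e-05). Cdkn2d, the INK4 inhibitor p19, fell by 0.54 and Cdkn2a, the locus of p16 and ARF, by 0.56. Cdkn1b, the inhibitor p27 of CDK2, fell by 0.40. Cdkn1a, the inhibitor p21, was the 1 that rose, from 223 ± 16.7 to 277 ± 10.3 (SD, n = 4), by 0.31 (limma adjusted p = 0.0022). Cdkn1c and Cdkn2b had differences of -0.27 and -0.09.

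The list of G1 kinase activation and cyclin turnover held 14 genes tested, of which 1 rose, 5 fell and 8 did not pass, with a median of -0.08. Cks1b, a small subunit of CDK complexes, went from 63.2 ± 2.92 to 38.6 ± 0.906 (SD, n = 4), a fall by 0.70 (limma adjusted p = 3.7e-06). Its paralog Cks2 fell by 0.65, and Skp2, the F-box protein that targets p27, by 0.32. Cdk7, the CDK-activating kinase, and Skp1a, a subunit of the SCF ligase, fell by 0.26 and 0.20. Gsk3b, a kinase known to mark cyclin D1 for export and degradation, rose by 0.51, from 15.5 ± 2.92 to 22.2 ± 1.66 (SD, n = 4; limma adjusted p = 0.0080).

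Of the E2F and DP transcription factors, 9 of 10 were tested, with 1 higher, 4 lower and 4 not called and a median of -0.15. E2f8, an atypical repressor, fell by 0.41, E2f7, its relative, by 0.32, and E2f5, which partners p130, by 0.23. E2f6 fell by 0.15. E2f1, an activator E2F, rose by 0.19, from 9.14 ± 0.476 to 10.6 ± 0.315 (SD, n = 4; limma adjusted p = 0.016), and lost the call without LRP1 eKO replicate 3. In the DREAM and MuvB complex, which represses cell cycle genes with p130, 0 of 7 were higher (0 also at an unadjusted limma p under 0.05) and 3 lower at a median of -0.12. These were Mybl2, the MuvB partner in cycling cells, which fell by 0.52, Lin9, which fell by 0.29, and Rbbp4, a histone chaperone, which fell by 0.26.

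Replication genes driven by E2F were mostly lower. Of 18 tested, 15 fell, 0 rose (also 0 at an unadjusted limma p under 0.05) and 3 did not pass, and all 18 differences lay below 0, with a median of -0.30. Tk1, thymidine kinase, gave signals of 15.5, 16.3, 15.8 and 18.6 in the WT libraries and of 9.27, 9.03, 10.7 and 9.41 in LRP1 eKO, and fell by 0.73 (limma adjusted p = 5.1e-05). Mcm5, a subunit of the replicative helicase, fell by 0.53 and Prim1, the primase, by 0.69.

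The cyclins and the kinase of S, G2 and M phases had the lowest median, -0.997, with 5 of 5 lower and 0 higher at the adjusted or the unadjusted limma threshold. Ccnb2, cyclin B2, went from 20.9 ± 0.566 to 9.06 ± 0.615 (SD, n = 4), a fall by 1.12 (limma adjusted p = 6.6e-07). Ccnb1, cyclin B1, fell by 1.13 and Ccna2, cyclin A2, by 1.00. Cdk1, the mitotic kinase, fell by 0.84 and Ccnf, cyclin F, by 0.73. Ccnb1 and Ccnb2 were 2 of the genes past a 2-fold change, which 1.66% of all genes tested passed, while 0 of the 9 G1 genes did with all 8 libraries.

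Regulators of cyclin D that respond to mitogens were split. Of 14 tested, 5 rose, 5 fell and 4 did not pass, with a median of 0.08. Lef1, listed but below the filter, had 0.46 to 0.61 in WT and 0.15 to 0.27 in LRP1 eKO. It was lower when fitted without the filter (limma adjusted p = 0.0012). Myc, the transcription factor that binds E-boxes, gave signals of 14.2, 15.5, 16.2 and 14.9 in the WT libraries and of 23.2, 24.1, 24.9 and 22.6 in LRP1 eKO, and rose by 0.61 (limma adjusted p = 2.6e-05). Jun, an AP-1 subunit, rose by 0.46, and Fos, its partner, by 0.43. Ets1 rose by 0.36 and Fosl1 by 0.26. Spry4 and Spry2, feedback inhibitors of receptor tyrosine kinases, fell by 0.67 and 0.33. Etv4 fell by 0.48, Mycn by 0.45 and Etv5 by 0.25.

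**Figure D4:**
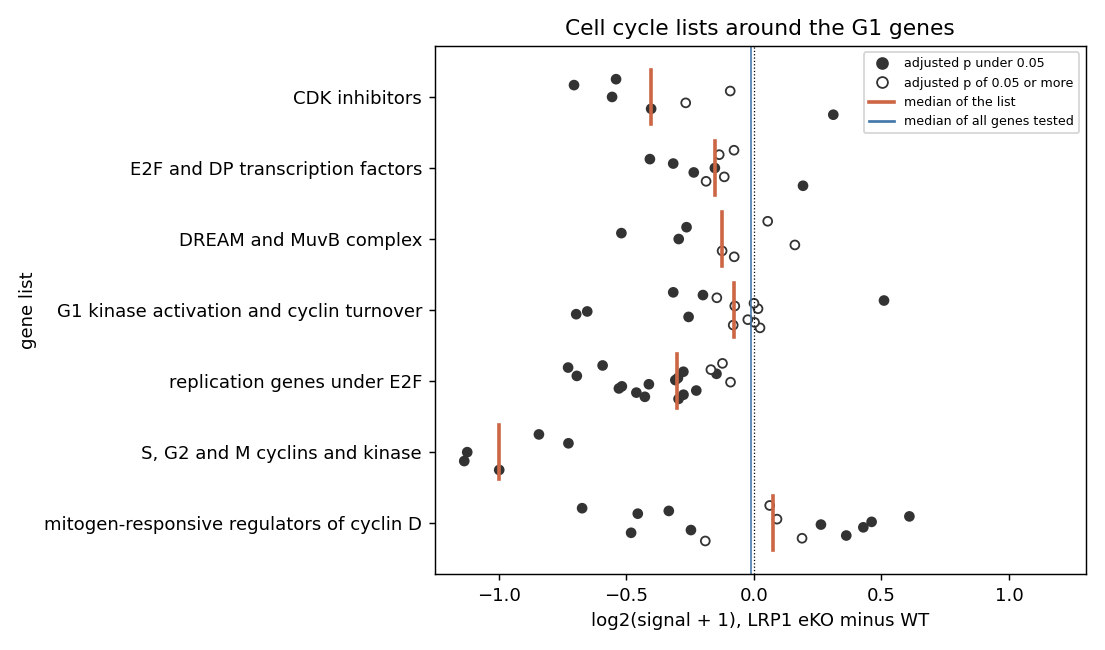
Difference of log2(signal + 1), LRP1 eKO minus WT, of each tested gene in the 7 cell cycle lists, filled where adjusted p was under 0.05, with the median of each list (orange) and of all genes tested (blue). The list of S, G2 and M cyclins lies farthest left with a median of -0.997, and the mitogen-responsive list is spread on both sides of 0.

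Markers of other cells moved with genotype in several lists. Of hepatocyte markers, 4 of 4 tested were lower, with a summed signal of 62.4 to 91.2 in WT and 20.8 to 28.3 in LRP1 eKO, led by Fgb. Skeletal muscle markers, led by Actn3, were lower for 4 of 4 tested, with sums of 35.5 to 55.3 and 11.4 to 12.4. Among them Atp2a1 met the filter only through WT (4.62 to 7.79 in WT, 0.59 to 0.94 in LRP1 eKO). The part of hepatocyte and skeletal muscle markers in the G1 differences was not tested. Macrophage and Kupffer markers summed to 172 to 269 in WT and 63.8 to 744 in LRP1 eKO, with 1 of 9 tested higher and 1 lower. Lyz2, a macrophage lysozyme, had 29.1 in LRP1 eKO replicate 2 and 201 to 367 in the other eKO libraries, against 69.9 to 140 in WT. Without LRP1 eKO replicate 2, 8 of 9 macrophage markers and 5 of 7 pan-endothelial markers were higher, and without any 1 of the other 7 libraries 0 of 9 macrophage markers were. Sinusoidal endothelial markers, led by Stab1, summed to 7.84 to 11.7 and 8.38 to 33.0, with 1 of 4 tested higher, 3 of 3 without LRP1 eKO replicate 2, 2 of 4 without WT replicate 3 and 0 of 3 without LRP1 eKO replicate 1, 3 or 4. The 1 called with all libraries, Oit3, met the filter only through LRP1 eKO (0.48 to 0.73 in WT, 1.91 to 3.46 in LRP1 eKO). Cholangiocyte markers, led by Spp1, summed to 301 to 356 and 233 to 696, with 0 of 3 higher (1 at an unadjusted limma p under 0.05, and 2 past the adjusted threshold without LRP1 eKO replicate 2 and 1 without WT replicate 4) and 1 lower. Erythroid markers, led by Alas2, summed to 24.9 to 46.4 and 14.7 to 24.8, with 1 lower of 1 tested, a call lost without LRP1 eKO replicate 2 or 4 or any WT library. Neutrophil markers, led by S100a8, summed to at most 3.70, with 1 higher of 1 tested, a call lost without LRP1 eKO replicate 1, 3 or 4 or WT replicate 1 or 3. Lymphocyte markers, led by Cd79a, summed to at most 0.19 in any library, and Cd3g, Cd79b and Ncr1 were listed at 0 in all 8. Without both WT replicate 4 and LRP1 eKO replicate 2, the 6 called G1 genes kept their calls and Rbl1 was lower as well.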

How the data were processed

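RNA from 8 preparations named as liver ECs, 4 WT and 4 LRP1 eKO, was made into TruSeq libraries. The authors deposited 1 table of signal per coding gene, quantile-normalized across libraries. The unit before that step, the annotation and whether counting used strand are not stated for the table. The submitters' processing notes name TopHat2, Cufflinks and mm10, whereas the study's methods name trimGalore, STAR, featureCounts and GENCODE; which of them made the table is not stated. The depth is unknown and no counting interval can be given.

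Signal was analysed as log2(signal + 1), keeping genes that reached a signal of 1 in 4 or more libraries. A gene could pass this filter through 1 group alone. limma 3.58.1 in R 4.3.3 was fitted with a mean-variance trend and genotype as the only term, as the study's methods compare genotypes, and p-values were Benjamini-Hochberg adjusted over all 11391 genes. The methods' count model could not be used on normalized signal. The fit was tested on simulated data. Exact two-sided permutation tests were run in scipy 1.17.1. The genes and lists were chosen with earlier results of these data known. Named genes were all members, Lrp1, Rbl2, the 3 smallest adjusted p and any 2-fold change in each cell cycle list, the 3 profiles nearest to the member with the largest difference, and, for cell types, Cdh5, Pecam1, Lyz2 and the highest marker of each list. Other genes of the cell cycle lists, other cell type markers, partners that overlap a member and markers at 0 were named after their values were seen. Coordinates are from GENCODE M21 (GRCm38) and promoters from RefSeq (GRCm38.p6). Alternatives were other pseudocounts (0.1 and 5), filters, moderation, library weights, centring, a replicate block and each library left out.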

Additional observations from a re-analysis of the deposited data

Results flagged for a closer look

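In 4 of the 18 groups of 4 libraries examined (9 genes in 2 genotypes), 1 library lay far from the other 3, by its gap to the nearest divided by the range of the group. Chance alone flags about 1 in 20 independent groups, here 0.9, but these groups reuse the same 8 libraries. The share of all genes tested that is flagged in this way was not computed. All 4 were WT replicate 4, which lay farthest from its group median for 61.7% of all genes tested. The flags therefore cannot be told apart from a deviation of the whole library. WT replicate 4 was lowest for Ccnd1 (gap over range 0.913), for Ccnd2 (0.891) and for Rbl1 (0.869), and highest for Cdk4 (0.837). Without it the log2 difference was 0.74 for Ccnd1, 0.82 for Ccnd2 and -0.43 for Cdk4, which kept their calls, and -0.31 for Rbl1, which then passed (limma adjusted p = 0.0081).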

How the results depend on the processing

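Over 18 alternative fits, Ccnd1, Ccnd2, Cdk2 and Cdk4 passed the test in each, and over these fits and the ratio of arithmetic means their differences were 0.69 to 0.85, 0.80 to 1.01, -0.32 to -0.21 and -0.49 to -0.43. The same ranges were 0.28 to 0.57 for Cdk6, -0.46 to -0.19 for Ccne2, 0.06 to 0.13 for Ccnd3, -0.14 to -0.08 for Ccne1 and -0.31 to -0.10 for Rbl1, with the smallest values of Cdk6, Ccne2 and Rbl1 at a pseudocount of 5, and no G1 gene changed direction. Requiring a 2-fold change left 0 higher and 0 lower, while Ccnd2 reached 1.01 without WT replicate 2. With 1 library left out, 2 to 3 were higher and 2 to 4 lower. Cdk6 also lost its call with no filter (adjusted p = 0.054), and Rbl1 gained one with array weights (0.0083) and without both WT replicate 4 and LRP1 eKO replicate 2 (0.012), an alternative chosen after seeing the data. Ccne2 and Rbl1 were below a filter of a mean signal of at least 5. Paralog shifts kept their sign with 1 library left out, from -0.16 to -0.08 for Ccnd1/Ccnd2, 0.67 to 0.76 for Ccnd1/Ccnd3, 0.75 to 0.91 for Ccnd2/Ccnd3, 0.15 to 0.33 for Ccne1/Ccne2 and -1.07 to -0.74 for Cdk4/Cdk6. With array weights 8 E2F and DP genes were lower, and 1 with the filter on the mean. The cause of these changes was not tested. The labels number replicates 1 to 4 in both groups. For each gene tested, the deviation of a library from its group mean was taken. These deviations, not the signals, were correlated across genes between a WT and an LRP1 eKO library. Same-numbered libraries gave -0.13 to 0.18, with 1 of 4 pairs over 0.1, and different-numbered libraries -0.26 to 0.21. So few pairs cannot show whether same-numbered libraries share a litter or a preparation, which the labels do not state. With the replicate number as a block, 3 G1 genes were higher and 3 lower, the same 6 genes, and over all genes 1975 were higher and 2210 lower, against 2164 and 2526 without it. Depth, which limits genes of low signal such as Rbl1, is unknown here.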
